A study of Homo sapiens with 6 samples.

Results

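Set 6 was compared with set 2 in the human liver carcinoma line Huh7 by sequencing of mRNA libraries. The comparison used 4 of the 6 libraries of the series, chosen by the set number in their titles. Each set held 1 library labelled NC and 1 labelled NACER_ASO, the agent with which the study knocked down NACER, a long non-coding RNA that the series title calls liver-specific. NACER itself was not analysed here, and set 5 was not part of the comparison. RNA of all libraries was taken from cell homogenates with Trizol, and 1 ug of it entered a TruSeq Stranded mRNA preparation. The labels do not say whether a set is a separate culture, passage or day, so whatever else differed between the sets cannot be told apart from the difference reported here. The 2 libraries of a set received different treatments and are not replicates of one condition, and p-values measure only the spread among these 4 libraries.

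Huh7 cells keep part of the programme of hepatocytes: they transcribe genes of plasma proteins, apolipoproteins and lipid synthesis, together with fetal liver and tumour genes. Such cultures also hold pathways that respond within minutes to hours, among them the immediate early genes switched on by serum and growth factors, NF-kB signalling that drives chemokines, NRF2 signalling that drives antioxidant enzymes, and the sterol pathway that drives cholesterol synthesis. Replication-dependent histone genes are transcribed mostly in S phase, and their mRNAs end in a stem-loop in place of a poly(A) tail.

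The sets differed widely, and the difference was far larger than that between the treatments. Of 14418 gene symbols with at least 1 FPKM (a read density that divides by transcript length and library total) in at least 2 of the 4 libraries, 6407 (44.4%) passed an adjusted p of 0.05 in limma with treatment as a term. Of these, 2332 (16.2%) were higher and 4075 (28.3%) lower in set 6. Of the 13186 genes that reached 1 FPKM in at least 1 library of each set, 2261 (17.1%) were higher and 3026 (22.9%) lower. The filter fixed the direction of the other genes. Differences are on the log2(FPKM + 1) scale, set 6 minus set 2, which understates the change of weakly expressed genes. A pseudocount of 0.1 in place of 1 widened the difference of named genes near or under 1 FPKM in a set by over 1.5 times, as for F13B (from -1.69 to -2.93) and LAMB3 (from 1.65 to 3.16). Both set 6 libraries lay above both set 2 libraries for 4538 genes (31.5%) and below them for 6020 (41.8%). The split depended on scaling: higher genes made up 36.4% of those called as deposited and 54.8% after quantile normalization, which moved the median of all genes from -0.07 to 0.05. Rescaling to equal mRNA sums gave 29.9% and a median of -0.13. With so few libraries an exact two-sided permutation test of a single gene cannot go below p = 0.333, so single genes are read from the fit across all genes.

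The SD across genes of the set difference was 0.73 within NC and 0.62 within NACER_ASO. The SD of the treatment difference was 0.31 within set 2 and 0.26 within set 6. The set difference had the same sign in both treatments for 11869 genes (82.3%), as the plot of both treatments shows. Among called genes, 9 were higher and 222 lower in set 6 by at least 2 on the log2(FPKM + 1) scale. Between 12738 and 14635 symbols reached 1 FPKM per library, with both set 6 libraries under both set 2 libraries. No pair of libraries held identical values. All fits with 1 library removed, here and below, had no treatment term, so their set difference also takes in treatment. Removing the NC library of set 6 left 2913 genes past the threshold, and removing its NACER_ASO library left 3263; removing the NC library of set 2 left 4002.

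**Figure D1:**
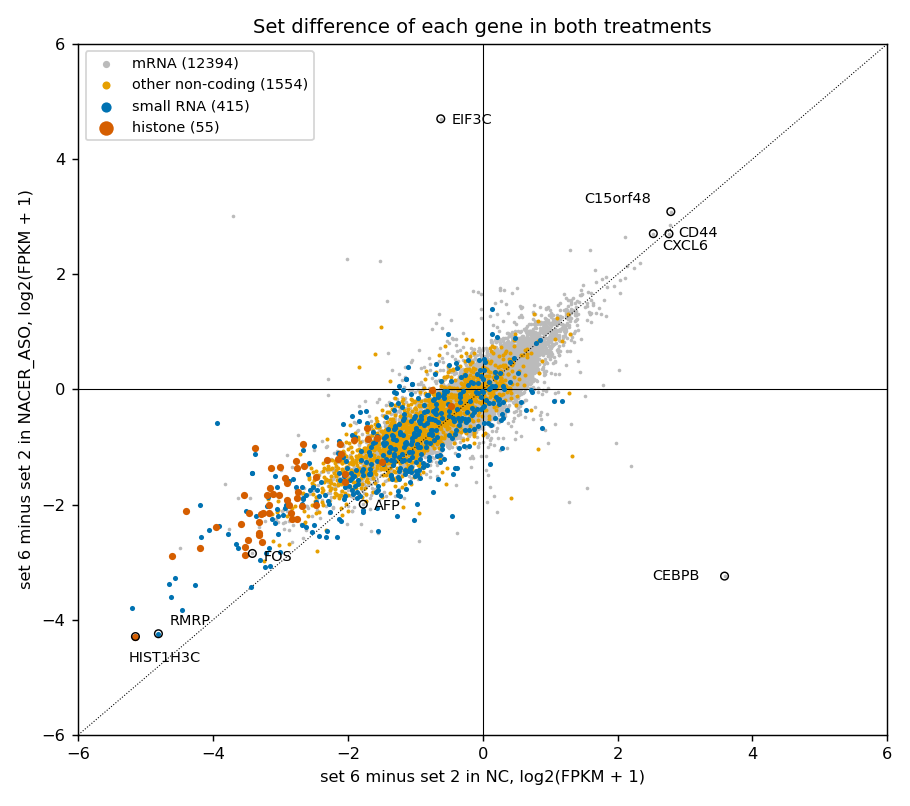
Each point is 1 gene, with the set difference on log2(FPKM + 1) within NC on the horizontal axis and within NACER_ASO on the vertical axis, and gene classes in colour. Most points lie along the diagonal, and nearly all histone genes lie in the lower left, with medians of -2.91 within NC and -1.83 within NACER_ASO.

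The liver markers were expressed in both sets, at different levels. ALB, serum albumin, stood at 1061 FPKM in the NC and 1187 FPKM in the NACER_ASO library of set 2, and at 616 and 576 FPKM in those of set 6; values below follow the same order. AFP, the fetal counterpart of albumin, stood at 767 and 912 FPKM in set 2 and at 224 and 228 FPKM in set 6. APOA1, the main protein of high-density lipoprotein, stood at 24.5 and 26.9 FPKM against 5.54 and 6.78 FPKM. The sets did not overlap for any of these genes, and all were lower in set 6: ALB by a log2 difference of -0.91 (SE 0.14, adjusted p = 0.00129), AFP by -1.88 (SE 0.12) and APOA1 by -1.90 (SE 0.13). A4GALT, the synthase of the glycosphingolipid Gb3, went the other way, with 3.71 and 2.49 FPKM in set 2 and 8.63 and 7.50 FPKM in set 6 (1.16, SE 0.15, adjusted p = 0.000794). In bulk RNA, fewer cells of a type and less RNA per cell cannot be told apart.

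The genes named in the series title also differed between the sets. NFE2L2, which encodes the transcription factor NRF2, stood at 148.5 and 130.3 FPKM in set 2 and at 90.2 and 81.6 FPKM in set 6 (-0.69, SE 0.10, adjusted p = 0.00140). PLK2, a polo-like kinase, stood at 79.1 and 70.5 FPKM against 32.9 and 37.6 FPKM (-1.06, SE 0.12, adjusted p = 0.000431). CDKN1A, which encodes the cell cycle inhibitor p21, was higher in set 6, at 50.9 and 65.1 FPKM against 37.4 and 32.0 FPKM. For these 3 genes both libraries of one set lay apart from both of the other. The CDKN1A difference of 0.72 (SE 0.15, adjusted p = 0.00499) did not pass when the highest transcript replaced the sum over transcripts (adjusted p = 0.0877). KEAP1, the adaptor that marks NRF2 for degradation, differed by 0.29 (SE 0.13, adjusted p = 0.10) and passed only without the NC library of set 2 (adjusted p = 0.0459).

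Among genes of at least 5 FPKM in the higher set, C15orf48, DUOXA2, CD44 and CXCL6 had the largest increases. C15orf48, which encodes a small mitochondrial protein related to a respiratory chain subunit, stood at 6.41 and 4.51 FPKM in set 2 and at 50.2 and 45.9 FPKM in set 6, a log2 difference of 2.94 (SE 0.13, adjusted p = 2.43e-05). CD44, the hyaluronan receptor, stood at 4.26 and 5.42 FPKM against 34.7 and 40.8 FPKM, a 7.80-fold difference of means. DUOXA2, the maturation factor of dual oxidase 2, stood at 0.976 and 1.08 FPKM against 12.5 and 14 FPKM. In every one of these genes the set 6 libraries lay far above those of set 2 and close to each other. DUOX2, the oxidase itself, differed by 2.14 (SE 0.14). DUOX2, DUOXA2 and C15orf48 lie on chromosome 15 of hg19, with DUOX2 starting at 45384852, DUOXA2 at 45406523 and C15orf48 at 45722727.

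The other leading genes were CXCL6, a chemokine for neutrophils (2.62), CDA, cytidine deaminase (2.38), OLR1, a receptor of oxidised low-density lipoprotein (2.17), the tetraspanin CD9 (2.02), the cytokine IL6 (2.0), the actin-bundling LCP1 (1.96), the transcription factor POU2F2 (1.89) and PLEK2 (1.87). OLR1 stood at 9.30 and 11.6 FPKM in set 2 and at 47.8 and 53.2 FPKM in set 6. CDA stood at 0.985 and 0.635 FPKM against 7.52 and 9.29 FPKM. It passed the filter only through set 6, which fixed its direction. Among genes chosen after their values were seen, the mucin MUC13 stood at 9.77 and 14 FPKM against 40.5 and 50.9 FPKM. KYNU, the kynureninase of tryptophan breakdown, stood at 11.2 and 14.4 FPKM against 49.1 and 48.3 FPKM. Neither pair of sets overlapped. None of the 12 leading genes lost its call under any of the 17 other settings.

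**Figure D2:**
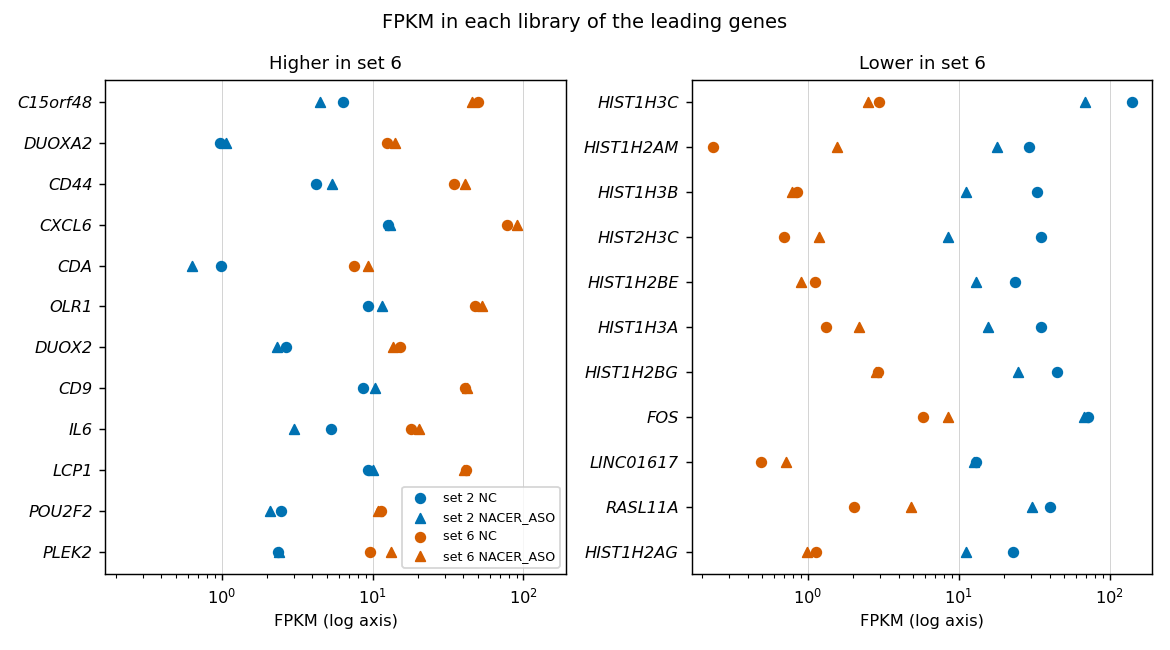
FPKM on a log axis of leading genes in each direction, with 1 point per library, coloured by set and shaped by treatment. In every row both points of set 6 lie on one side of both points of set 2; C15orf48 moves from 6.41 and 4.51 FPKM to 50.2 and 45.9 FPKM and HIST1H3C from 139 and 68.1 FPKM to 2.95 and 2.52 FPKM.

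Histone genes made up most of the largest decreases, beside FOS, RASL11A and LINC01617. FOS, a subunit of the AP-1 transcription factor, stood at 71.5 and 67.6 FPKM against 5.78 and 8.51 FPKM (-3.13, SE 0.15, adjusted p = 2.48e-05). RASL11A, a small GTPase of the Ras family, stood at 40.4 and 30.6 FPKM against 2.03 and 4.86 FPKM. The lowest set 2 value of both exceeded the highest set 6 value by several fold. LINC01617, a long non-coding RNA, stood at 13.1 and 12.5 FPKM against 0.489 and 0.715 FPKM (-3.11, SE 0.16). It passed the filter only through set 2, which fixed its direction. Another 8 of the 12 leading genes were replication-dependent histones, from HIST1H3C (-4.72, SE 0.19) to HIST1H2AG (-3.05, SE 0.21).

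The histone group was lower in set 6 almost as a whole. Of 55 tested replication-dependent histone genes, 54 (98.2%) were lower, against 28.3% of all genes, with a median of -2.42. HIST1H3C, a histone H3 gene, stood at 139 and 68.1 FPKM in set 2 and at 2.95 and 2.52 FPKM in set 6. HIST1H2BE, a histone H2B gene, stood at 23.5 and 13 FPKM against 1.12 and 0.900 FPKM. HIST2H3C stood at 34.9 and 8.51 FPKM against 0.691 and 1.2 FPKM. In set 2 the NC library was the highest for each of these genes, and the set 6 libraries were the closer to each other. Both set 6 libraries were under 1 FPKM for 27 of the 55, which passed the filter only through set 2 and could only be called lower; of the other 28, 27 were lower. The median tested histone gene was at 14, 5.88, 0.915 and 0.841 FPKM. Histone genes are near-identical copies of each other, so how fragments were divided among them is uncertain.

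The 3′ ends of 4 of the leading histone mRNAs are shown because the stem-loop is what sets these transcripts apart from polyadenylated mRNAs. They are on the strand of the gene in GRCh38, with the paired and loop bases of the stem-loop in capitals. HIST2H3C lies at chr1:149840687-149840712 (minus strand), HIST1H2BE at chr6:26184205-26184230 (plus), HIST1H2BG at chr6:26216213-26216238 (minus) and HIST1H2AG at chr6:27133510-27133535 (plus).
HIST2H3C: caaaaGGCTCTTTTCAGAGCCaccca
HIST1H2BE: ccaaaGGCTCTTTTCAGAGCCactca
HIST1H2BG: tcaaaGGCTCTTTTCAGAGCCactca
HIST1H2AG: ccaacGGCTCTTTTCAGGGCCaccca
A stem-loop of this form stood in an annotated transcript of 23 of the 55 tested histone genes and in 0.063% of 57133 annotated genes. All 23 were lower in set 6, but so were 54 of the 55, so the match cannot separate lower histone genes from others. The search used 1 letter pattern on annotated transcripts, so a gene without a match cannot be read as lacking the loop. The 4 genes shown had to hold a match. SLBP, the protein that binds the stem-loop, did not pass the threshold, at 41.1 and 42.2 FPKM in set 2 and 48.5 and 47.2 FPKM in set 6 (0.20, SE 0.11, adjusted p = 0.170); it was chosen after its values were seen.

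Non-coding RNAs were lower with the histones. Of 415 tested small RNA symbols 293 (70.6%) were lower and 7 higher, with a median of -1.0, and of 1554 other non-coding symbols 1035 (66.6%) were lower and 33 higher, against 28.3% and 16.2% of all genes. Of these, 108 small RNA and 454 other non-coding symbols passed the filter only through set 2, which fixed their direction; 190 of the 306 small RNA symbols and 609 of the 1094 others that reached 1 FPKM in both sets were lower. RMRP, the RNA of the ribonuclease MRP, stood at 573 and 141 FPKM in set 2 and at 19.4 and 6.47 FPKM in set 6 (-4.53, SE 0.14, adjusted p = 1.14e-05). RPPH1, the RNA of ribonuclease P, stood at 562 and 172 FPKM against 43.7 and 25.8 FPKM. TERC, the template RNA of telomerase, stood at 4.80 and 3.27 FPKM against 0.677 and 0.366 FPKM. TERC passed the filter only through set 2, which fixed its direction. For all of these the NC library was the highest within set 2, as for the histones. All 8 tested spliceosomal RNA symbols were lower (median -3.20), as were 91 of 123 C/D box and 61 of 78 H/ACA small nucleolar RNAs and 118 of 190 microRNA symbols. Many of these symbols lie inside host genes or exist in several copies, so their values are uncertain.

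Of 22 tested nuclear or small-RNA host long non-coding RNAs, 18 (81.8%) were lower and 1 (4.55%) higher, with a median of -0.98. Of all 1554 other non-coding symbols 66.6% were lower and 2.12% higher. SNHG12, a host of small nucleolar RNAs, stood at 151 and 127 FPKM against 36.6 and 48 FPKM (-1.70, SE 0.15). NEAT1, the scaffold of paraspeckles, stood at 199 and 91.0 FPKM in set 2 and at 84.6 and 37.1 FPKM in set 6, so the sets did not overlap but the NC libraries were the higher in both. NEAT1 differed by -1.25 (SE 0.10, limma adjusted p = 0.000135), and MALAT1, another nuclear RNA, by -1.09. Without the NC library of set 2 they differed by -0.69 and -0.61, and without the NACER_ASO library of set 6 by -0.66 and -0.64. These fits had no treatment term, so the difference between NC and NACER_ASO libraries enters their values. With all 4 libraries but no treatment term, neither NEAT1 nor MALAT1 passed (limma adjusted p = 0.0674 and 0.0561).

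The share of all FPKM moved with the set in these classes. Histones took 0.336% and 0.166% of FPKM in the libraries of set 2 and 0.0434% and 0.0435% in those of set 6. Small RNAs took 2.41% and 1.41% against 0.571% and 0.560%, and mRNAs 91.2% and 92.6% against 95.5% and 95.3%. Their part in the other results was not tested. Among 12394 mRNAs other than histones, 2292 (18.5%) were higher and 2693 (21.7%) lower, with a median of -0.003. Of these, 538 passed the filter only through set 2 and 98 only through set 6, which fixed their direction. Of the 11758 that reached 1 FPKM in both sets, 2224 (18.9%) were higher and 2200 (18.7%) lower. The split of all 12394 moved both ways with scaling. Median-of-ratios scaling gave 2844 higher and 2270 lower, and quantile normalization 2978 and 1716. Rescaling to equal mRNA sums gave 2008 higher and 3293 lower, and to equal sums 2435 and 2962. The mRNA difference also moved with level: the 2177 weakest had a median of -0.32 and the 1121 strongest one of 0.16. Of the weakest 9.1% were higher and 40.2% lower, and of the strongest 30.7% and 10.2%. How many of the weakest had their direction fixed by the filter was not counted.

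Immediate early genes, which cells transcribe within minutes of a stimulus, were lower in set 6. Of 34 tested, 26 (76.5%) were lower and 2 (5.88%) higher, against 28.3% and 16.2% of all genes, with a median of -0.89. EGR1, a zinc finger regulator induced by serum, stood at 56.4 and 43.3 FPKM in set 2 and at 6.54 and 7.94 FPKM in set 6 (-2.62, SE 0.16, adjusted p = 5.62e-05). FOSB, another AP-1 subunit, stood at 42.1 and 39.5 FPKM against 5.02 and 8.68 FPKM. NR4A2, an orphan nuclear receptor, stood at 32.4 and 32.6 FPKM against 3.28 and 5.75 FPKM. In each the sets were far apart, and within set 6 the NACER_ASO library was the higher. JUN differed by -1.22 (SE 0.12) and MYC by -0.90 (SE 0.14), the latter by -0.58 without the NC library of set 2; both were chosen after their values were seen. SNAI1, a repressor of epithelial genes listed with TGF-beta targets, showed a like size, at 61.0 and 52.7 FPKM against 6.86 and 11.3 FPKM (-2.55, SE 0.19).

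The EGR1 promoter is shown because it holds the CArG box that serum response factor binds. It covers chr5:138465229-138465528 (plus strand, GRCh38.p14, RefSeq), from 250 bases before to 50 after the start of the gene, with 2 CArG matches in capitals.
EGR1: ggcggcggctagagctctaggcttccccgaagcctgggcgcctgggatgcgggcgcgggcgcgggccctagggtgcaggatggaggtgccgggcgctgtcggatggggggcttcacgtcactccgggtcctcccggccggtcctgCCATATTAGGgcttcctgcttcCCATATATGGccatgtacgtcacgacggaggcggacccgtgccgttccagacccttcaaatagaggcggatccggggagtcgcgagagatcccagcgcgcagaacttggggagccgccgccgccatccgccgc
The box, searched on both strands, stood in 1.29% of 35116 promoters of this length and in 3 of the 25 listed immediate early genes with a promoter, EGR1, EGR2 and SRF; 2 of the 21 lower genes with a promoter held it.

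Most tested NF-kB targets and chemokines were higher in set 6, and fewer were lower. Of 23 tested, 16 (69.6%) were higher and 6 (26.1%) lower, against 16.2% and 28.3% of all genes, with a median of 0.52. CXCL6 stood at 12.7 and 13.1 FPKM in set 2 and at 78.3 and 91.2 FPKM in set 6 (2.62, SE 0.11, adjusted p = 2.43e-05). CCL20, a chemokine for dendritic cells and lymphocytes, stood at 199 and 185 FPKM against 503 and 555 FPKM. IL6 stood at 5.30 and 3.0 FPKM against 17.9 and 20.3 FPKM. For all of these the lowest set 6 library exceeded the highest of set 2 by over 2-fold. BIRC3, an inhibitor of apoptosis, differed by 1.68 (SE 0.13) and CXCL1, chosen after its value was seen, by 0.93 (SE 0.17).

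NFKBIA, which encodes the inhibitor that holds NF-kB in the cytoplasm, stood at 272 and 187 FPKM in set 2 and at 105 and 104 FPKM in set 6 (-1.10, SE 0.14, adjusted p = 0.000666). TNFAIP3, which encodes the inhibitor A20, stood at 60.3 and 50.1 FPKM against 37.8 and 37.0 FPKM (-0.54, SE 0.11); its call ended without the NC library of set 6 (adjusted p = 0.0505) and without its NACER_ASO library (adjusted p = 0.0561), and with the highest transcript (adjusted p = 0.0802). Both genes are induced by NF-kB and feed back on it, and both were chosen after their values were seen. The other 4 lower members, also named after their values were seen, were the cytokines TNF and LTB, the chemokine CXCL10 and the receptor TNFRSF9. Without the NC library of set 6 the list held 10 higher and 1 lower, and without its NACER_ASO library 11 and 3.

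Promoters of 3 genes that were higher and of NFKBIA are shown so that the kappaB site of each can be read. All are from RefSeq on GRCh38.p14, on the strand of the gene, with the kappaB match in capitals: CXCL6 at chr4:73836428-73836727 (plus), CCL20 at chr2:227813592-227813891 (plus), IL6 at chr7:22726950-22727249 (plus) and NFKBIA at chr14:35404700-35404999 (minus).
CXCL6: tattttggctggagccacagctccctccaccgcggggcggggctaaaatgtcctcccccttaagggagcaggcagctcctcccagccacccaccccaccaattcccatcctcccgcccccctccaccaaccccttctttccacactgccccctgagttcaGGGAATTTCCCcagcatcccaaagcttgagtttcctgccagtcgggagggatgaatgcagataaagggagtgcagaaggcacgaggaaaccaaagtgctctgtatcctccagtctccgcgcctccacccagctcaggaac
CCL20: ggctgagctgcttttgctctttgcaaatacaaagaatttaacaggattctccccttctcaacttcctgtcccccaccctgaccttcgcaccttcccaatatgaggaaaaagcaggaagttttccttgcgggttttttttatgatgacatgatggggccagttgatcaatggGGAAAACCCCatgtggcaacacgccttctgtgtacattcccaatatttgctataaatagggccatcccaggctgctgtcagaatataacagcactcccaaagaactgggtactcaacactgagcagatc
IL6: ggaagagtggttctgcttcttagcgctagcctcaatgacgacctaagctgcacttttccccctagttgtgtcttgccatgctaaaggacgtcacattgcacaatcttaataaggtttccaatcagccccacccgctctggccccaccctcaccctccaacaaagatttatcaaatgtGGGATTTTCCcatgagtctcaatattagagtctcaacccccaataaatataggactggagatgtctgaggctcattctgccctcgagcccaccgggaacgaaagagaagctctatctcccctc
NFKBIA: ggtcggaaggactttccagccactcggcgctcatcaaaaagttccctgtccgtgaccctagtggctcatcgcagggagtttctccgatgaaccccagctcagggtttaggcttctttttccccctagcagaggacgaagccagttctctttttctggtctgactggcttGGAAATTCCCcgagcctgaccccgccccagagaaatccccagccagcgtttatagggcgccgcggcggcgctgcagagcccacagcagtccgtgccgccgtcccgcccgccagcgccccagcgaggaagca
The match, searched on both strands, stood in 11.3% of 35116 promoters and in 16 of the 21 listed genes with a promoter. It was present in 10 of 14 higher and 5 of 6 lower genes, so these windows held the letters in genes of either direction.

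**Figure D3:**
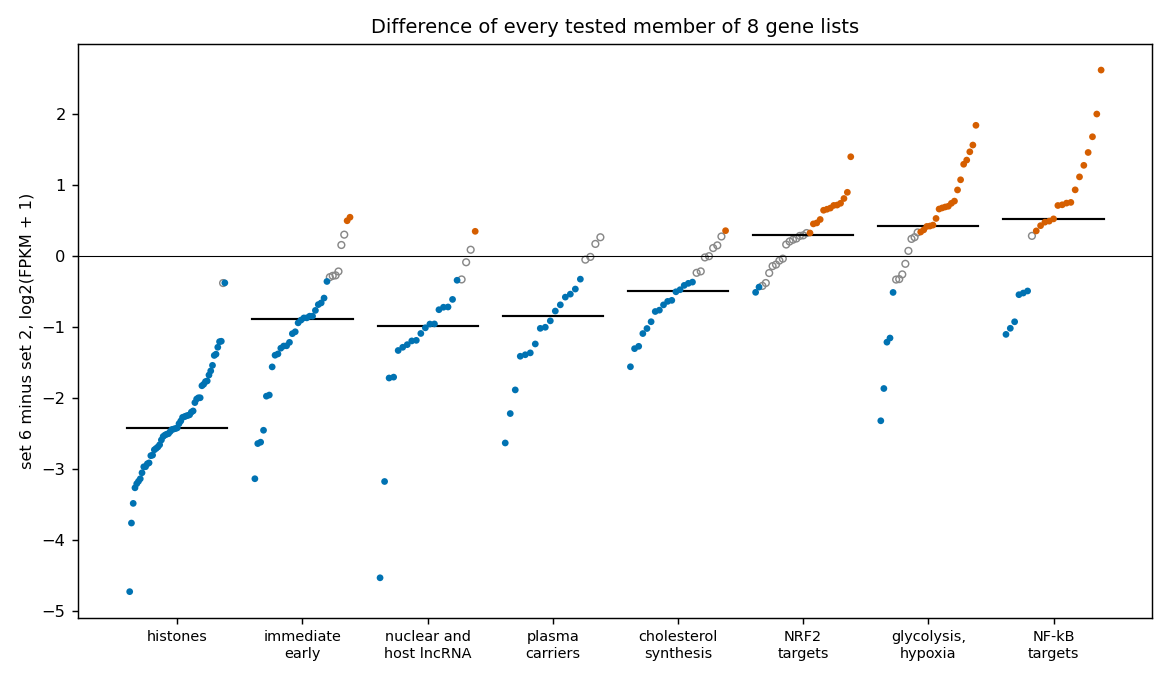
Set difference on log2(FPKM + 1) of every tested member of 8 gene lists, with 1 point per gene, open where it did not pass an adjusted p of 0.05, and the median of each list as a line. Immediate early genes lie mostly under 0 (median -0.89), NF-kB targets on both sides (median 0.52), and glycolysis and hypoxia genes mostly above 0 (median 0.42).

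Secreted liver proteins were lower in set 6 across most of their members. Of 20 tested plasma carriers and inhibitors 16 (80.0%) were lower (limma), against 28.3% of all genes, and the median was -0.84. No member was higher, also at an unadjusted p under 0.05. TTR, the carrier of thyroxine, stood at 65.2 and 67.2 FPKM in set 2 and at 9.38 and 10.3 FPKM in set 6 (-2.63, SE 0.11, adjusted p = 2.43e-05). AHSG, the inhibitor of calcification fetuin-A, stood at 77.8 and 76.0 FPKM against 15.2 and 16.3 FPKM. TF, the iron carrier transferrin, which was chosen after its values were seen, stood at 528 and 558 FPKM against 227 and 232 FPKM. The libraries of a set were nearly equal for each of these genes. SERPINF2, the inhibitor of plasmin, differed by -1.41 (SE 0.13; -0.82 with the highest transcript).

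Of 20 tested apolipoprotein and lipoprotein assembly genes, 14 (70.0%) were lower and 1 (5.0%) higher (median -0.73), against 28.3% and 16.2% of all genes. APOB, the backbone of low-density lipoprotein, stood at 105 and 126 FPKM in set 2 and at 41.8 and 34.4 FPKM in set 6 (-1.58, SE 0.14). APOM, a carrier of sphingosine phosphate, differed by -1.44 (SE 0.13). Among 27 coagulation and complement genes 16 (59.3%) were lower and 5 (18.5%) higher (median -0.54), against 28.3% and 16.2% of all genes. Of the 27, 4 passed the filter only through set 2, which fixed their direction, and 12 of the other 23 were lower. F13B, a subunit of factor XIII (-1.69), had the largest difference and was one of the 4. The complement gene C4A (-1.24) has a near-identical copy, C4B, and its counts are uncertain. This list fell to 8 lower genes without the NC library of set 6, and to 10 without the NACER_ASO library of either set.

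Of 13 acute phase genes 4 (30.8%) were higher and 6 (46.2%) lower, against 16.2% and 28.3% of all genes; 3 passed the filter only through set 2, and 2 were higher without the NACER_ASO library of set 6. SAA1, serum amyloid A, stood at 1.35 and 0.485 FPKM in set 2 and at 4.74 and 6.91 FPKM in set 6 (1.85, SE 0.25), while HAMP, hepcidin (-1.20), and HP, haptoglobin (-1.06), were lower. After quantile normalization these became -0.72 and -0.58. The median was -0.01 and its sign changed with median-of-ratios scaling (0.06). HAMP and HP were among the 3 that passed the filter only through set 2, which fixed their direction. Of the other 10, 4 were higher and 3 lower.

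Liver transcription factors did not move as one. Of 22 tested, 5 were higher and 8 lower (median -0.13), against 16.2% and 28.3% of all genes. CEBPA, a driver of hepatocyte differentiation, stood at 93.9 and 77.1 FPKM in set 2 and at 19.2 and 28.4 FPKM in set 6 (-1.82, SE 0.18, adjusted p = 0.000227). NR1H4, the bile acid receptor FXR, stood at 13.2 and 17.9 FPKM against 6.86 and 6.77 FPKM. HNF4A, a central regulator of hepatocyte genes, stood at 29.5 and 28.2 FPKM against 25.1 and 28.1 FPKM. CEBPA and NR1H4 were well separated by set, and HNF4A, chosen after its values were seen, did not pass (-0.11, SE 0.12, adjusted p = 0.456). HNF4A turned to 0.22 with the highest transcript. FOXA2, a pioneer factor of liver genes, stood at 9.34 and 41.5 FPKM against 6.93 and 6.58 FPKM, so its difference of -1.43 rested on 1 library and became -0.42 without the NACER_ASO library of set 2 (adjusted p = 0.0938) and -2.45 without its NC library. Its call also ended without either library of set 6, without a filter, without the treatment term and with all 6 libraries (adjusted p = 0.0584 to 0.193). Without the NC library of set 6 the list held 2 higher and 4 lower genes, and without its NACER_ASO library no higher and 4 lower.

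Cytochromes P450 and conjugating enzymes, which modify drugs and steroids, held 9 (40.9%) lower and 1 (4.55%) higher of 22. The shares of all genes were 28.3% and 16.2%. The median was -0.32, and quantile normalization gave -0.01 with 4 higher and 6 lower. Of the 22, 3 passed the filter only through set 2, which fixed their direction, and 7 of the other 19 were lower. CYP2C18 (-1.95) and CYP2C8 (-1.77), which are close in sequence, were among the lowest, with CYP2C8 one of the 3. CYP1A1, induced through the aryl hydrocarbon receptor, differed by -1.21 (SE 0.15). Among 14 oncofetal and imprinted growth genes 5 (35.7%) were lower and 2 (14.3%) higher, against 28.3% and 16.2% of all genes (median -0.32). GPC3, a surface marker of liver carcinoma, stood at 219 and 241 FPKM in set 2 and at 104 and 100.3 FPKM in set 6. PEG10 differed by -1.29 (SE 0.11) and IGF2, a fetal growth factor, by -0.89 (SE 0.11).

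**Figure D4:**
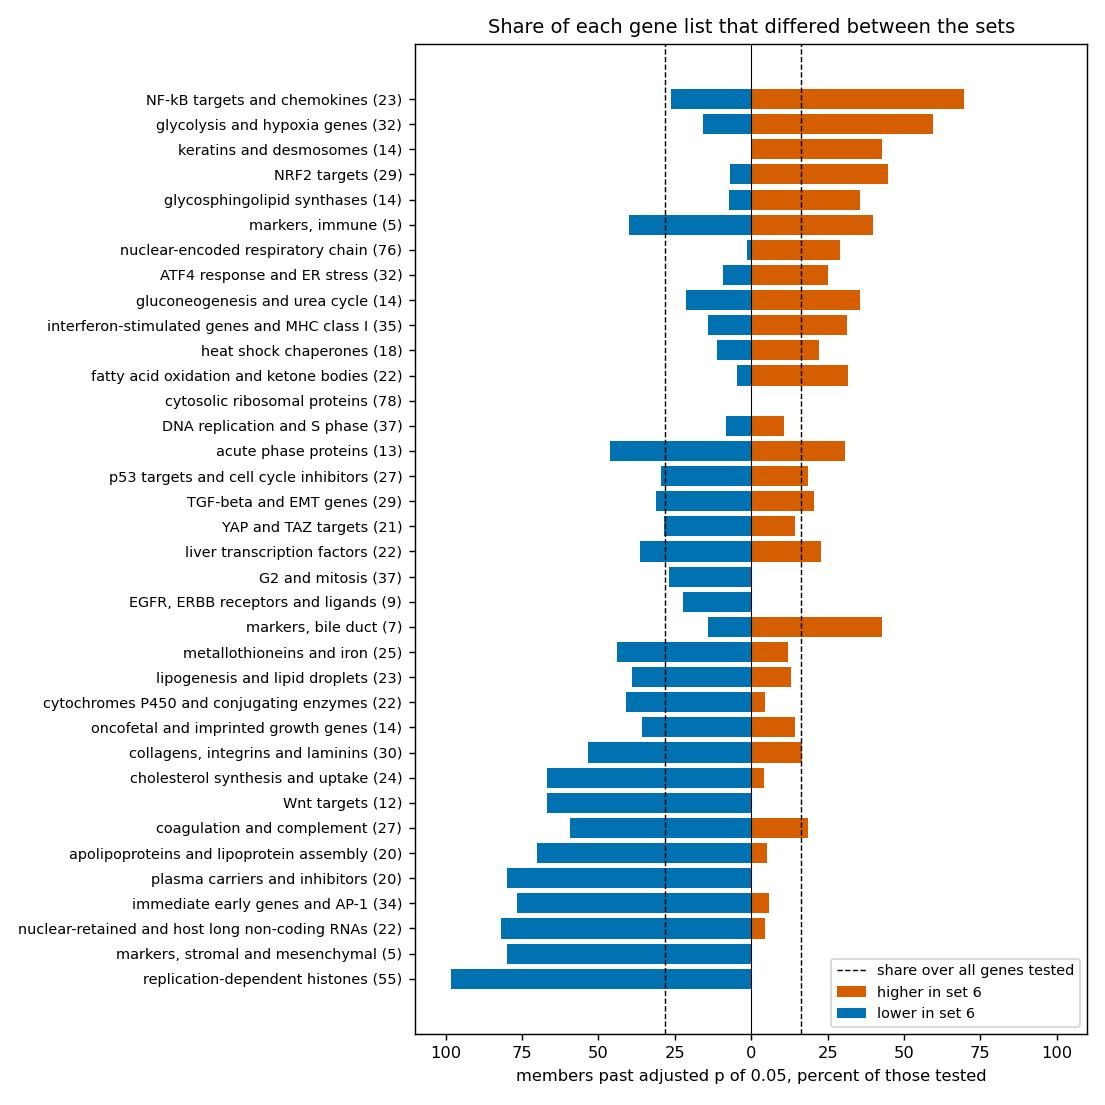
For each gene list, the share of tested members past an adjusted p of 0.05, with higher members to the right and lower members to the left of 0 and dashed lines at the shares of all genes, 16.2% and 28.3%. Histones (98.2% lower) and long non-coding RNAs (81.8% lower) reach farthest left, followed by plasma carriers and the 5 tested stromal markers (80.0% lower each), and NF-kB targets (69.6% higher) and glycolysis and hypoxia genes (59.4% higher) farthest right.

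NRF2 targets were higher in set 6, where the NRF2 gene NFE2L2 itself was lower. Of 29 tested, 13 (44.8%) were higher and 2 (6.9%) lower (median 0.29), against 16.2% and 28.3% of all genes. OSGIN1, an oxidative stress-induced growth inhibitor, stood at 23.5 and 22.0 FPKM in set 2 and at 59.8 and 63.3 FPKM in set 6 (1.40, SE 0.11, adjusted p = 0.000119). SRXN1, sulfiredoxin, stood at 53 and 47.5 FPKM against 95.3 and 93.2 FPKM, and GCLM, a subunit of the rate-limiting enzyme of glutathione synthesis, at 17.1 and 17.5 FPKM against 31.9 and 27.6 FPKM. The sets did not overlap for these. NQO1, a classic target chosen after its values were seen, stood at 171 and 164 FPKM against 192 and 183 FPKM and did not pass (0.16, SE 0.11, adjusted p = 0.249). Removing the NC library of set 6 left 9 higher members, and removing its NACER_ASO library left 8.

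Of 27 p53 targets and cell cycle inhibitors 5 (18.5%) were higher and 8 (29.6%) lower. The shares were 16.2% and 28.3% of all genes, and 18.5% and 21.7% of mRNAs other than histones. CDKN1C, the inhibitor p57, stood at 4.71 and 2.54 FPKM in set 2 and at 0.356 and 0.599 FPKM in set 6 (-1.61, SE 0.23). It passed the filter only through set 2, which fixed its direction. PMAIP1, the pro-apoptotic NOXA, stood at 13.5 and 16 FPKM against 5.02 and 5.31 FPKM. Their sets were apart, in the direction opposite to CDKN1A. Without the NACER_ASO library of set 2 or of set 6, 1 was higher and 6 were lower.

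Glycolysis turns glucose into lactate and is raised by hypoxia signalling. Of 32 tested genes of glycolysis and hypoxia, 19 (59.4%) were higher and 5 (15.6%) lower (median 0.42), against 16.2% and 28.3% of all genes. ENO2, an enolase isoform, stood at 11.5 and 10.7 FPKM in set 2 and at 41.5 and 43.3 FPKM in set 6 (1.84, SE 0.12). CA9, carbonic anhydrase 9, stood at 5.05 and 4.78 FPKM against 15.8 and 17.1 FPKM, and LDHA, lactate dehydrogenase, chosen after its values were seen, at 267 and 300.1 FPKM against 448 and 458 FPKM. All of these were higher in set 6, with the libraries of a set close to each other. ADM, adrenomedullin, went the other way, at 124 and 89.2 FPKM against 24.4 and 32.5 FPKM, as did ANKRD37 (-2.32, SE 0.15). Without the NACER_ASO library of set 6, 10 were higher.

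Of 76 tested nuclear-encoded genes of the respiratory chain, 22 (28.9%) were higher and 1 (1.32%) lower, and most did not pass. The median was 0.16, and 0.08 after quantile normalization. Of all genes 16.2% were higher and 28.3% lower. Of the 1121 strongest mRNAs, the level of this list, 30.7% were higher and 10.2% lower, so the higher share was near theirs. ATP5D, a subunit of ATP synthase, stood at 56.4 and 53.1 FPKM in set 2 and at 79.4 and 95.5 FPKM in set 6 (0.66, SE 0.12), and SDHC, a membrane anchor of complex II, at 31.3 and 32.3 FPKM against 50.8 and 49.4 FPKM. Removing the NC library of set 6 left 10 higher, and removing its NACER_ASO library left 8. Among 78 cytosolic ribosomal protein genes limma called no member, with 3 higher and 2 lower at an unadjusted p under 0.05 (median 0.02); quantile normalization called 9 higher and 12 lower and reversed the median to -0.03, and the fit without the NC library of set 2 called 9 higher.

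Cholesterol synthesis and uptake genes, transcribed through SREBP2, were mostly lower in set 6. Of 24 tested, 16 (66.7%) were lower and 1 (4.17%) higher (median -0.49), against 28.3% and 16.2% of all genes. INSIG1, which holds SREBP2 and its partner SCAP in the endoplasmic reticulum, stood at 37.1 and 36.2 FPKM against 14.1 and 14.5 FPKM (-1.30, SE 0.11, adjusted p = 0.000154). The libraries of each set were nearly equal. IDI1, an isomerase of the pathway, stood at 43.9 and 47.9 FPKM against 9.08 and 24.1 FPKM; its difference of -1.56 became -0.90 without the NC library of set 6. Its call ended without the NC library (adjusted p = 0.0775) or the NACER_ASO library (adjusted p = 0.0911) of set 2. Without the NC library of set 6, 9 members of the list were lower.

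Among 23 lipogenesis and lipid droplet genes 9 were lower and 3 higher (median -0.30), against 28.3% and 16.2% of all genes. Removing either set 6 library left 3 lower. FADS2, a fatty acid desaturase, stood at 109.8 and 122 FPKM in set 2 and at 41.6 and 45.9 FPKM in set 6 (-1.39, SE 0.10), and SCD, stearoyl-CoA desaturase, at 275 and 276 FPKM against 160 and 144 FPKM. The droplet protein PLIN3 was higher, at 113 and 111 FPKM against 60.3 and 59.2 FPKM. Of 22 genes of fatty acid oxidation and ketone bodies 7 (31.8%) were higher and 1 (4.55%) lower, against 16.2% and 28.3% of all genes. The lower gene passed the filter only through set 2, which fixed its direction. The transcription factor CREB3L3 (1.02, SE 0.11) led the higher genes, of which fewer were left without either set 6 library. Of 14 genes of gluconeogenesis and the urea cycle 5 (35.7%) were higher and 3 (21.4%) lower, against the same shares of all genes. NAGS, N-acetylglutamate synthase (1.24, SE 0.16), was among the higher and passed the filter only through set 6.

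Cell cycle genes differed less than the histones. Of 37 S phase genes 4 (10.8%) were higher and 3 (8.11%) lower, against 18.5% and 21.7% of mRNAs other than histones. Among the lower, CCNE2, cyclin E2, stood at 11.7 and 12.6 FPKM in set 2 and at 6.30 and 6.40 FPKM in set 6 (-0.84, SE 0.14). Of 37 G2 and mitosis genes 10 (27.0%) were lower, and limma called none higher. At an unadjusted p under 0.05, 2 were higher and 13 lower. Of all genes 28.3% were lower and 16.2% higher. Among mRNAs with a mean log2(FPKM + 1) of 4 to 6, a range that holds this list's median level, 12.8% were lower and 25.2% higher. NEK2, a centrosomal kinase, stood at 45.7 and 51.2 FPKM against 27.8 and 33.1 FPKM, and CCNA2, cyclin A2, at 38.8 and 34.2 FPKM against 24.4 and 23.8 FPKM. MKI67, the proliferation marker, chosen after its values were seen, did not pass (-0.25, SE 0.11, adjusted p = 0.114). Without the NC library of set 6, 2 of the mitotic genes were lower.

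Stress pathways held genes of both directions. Of 32 ATF4 and endoplasmic reticulum stress genes 8 were higher and 3 lower (median 0.14), against 16.2% and 28.3% of all genes. Among mRNAs with a mean log2(FPKM + 1) of 4 to 6, 25.2% were higher and 12.8% lower. That range holds this list's median level, and the list's shares were near those of the range. DDIT3, which encodes CHOP, had the largest difference (-1.65, SE 0.10). It stood at 162 and 154 FPKM in set 2 against 50.5 and 48.7 FPKM in set 6. With the highest transcript it differed by -1.04. CHAC1, a glutathione-degrading enzyme, was higher (0.98, SE 0.13), as was the chaperone component SDF2L1 (0.84, SE 0.12). Metallothioneins and iron genes held 11 lower and 3 higher of 25 (median -0.23), against 28.3% and 16.2% of all genes. MT1G, a metallothionein, stood at 178 and 80.1 FPKM against 21.5 and 29.6 FPKM, and SLC30A1, a zinc exporter, at 73.6 and 52.0 FPKM against 20.5 and 17.7 FPKM. Within set 2 the NC library was the higher for both. Metallothionein genes are near-identical copies, so their split is uncertain. Of 18 heat shock chaperones 4 (22.2%) were higher and 2 (11.1%) lower, against 16.2% and 28.3% of all genes. Of the 1121 strongest mRNAs, a group that holds this list's median level, 30.7% were higher and 10.2% lower. Fewer of the chaperones were higher without either library of set 6.

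Of 35 interferon-stimulated and MHC class I genes 11 (31.4%) were higher in set 6 and 5 (14.3%) lower, against 16.2% and 28.3% of all genes. The median was 0.12, and -0.02 without the NC library of set 2. Of the 35, 2 passed the filter only through set 2, which fixed their direction, and 3 of the other 33 were lower. PSMB8, an immunoproteasome subunit, stood at 5.88 and 7.73 FPKM in set 2 and at 15.5 and 19.3 FPKM in set 6 (1.24, SE 0.13), and HLA-C, a class I heavy chain, at 13.6 and 15.3 FPKM against 29.3 and 36.1 FPKM. TAP1, the peptide transporter, stood at 4.80 and 6.24 FPKM against 12.4 and 13.6 FPKM. These 3 did not overlap between the sets. PSMB9 differed by 1.17 (SE 0.17), and its call ended without the NC library of set 2 (adjusted p = 0.0529). Class I genes are close in sequence, so fragments may be shared among them.

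Matrix and adhesion genes were more often lower than higher, with single exceptions among the largest differences. Of 30 collagens, integrins and laminins 16 (53.3%) were lower and 5 (16.7%) higher (median -0.44), against 28.3% and 16.2% of all genes. Of the 30, 6 passed the filter only through set 2 and 1, LAMB3, only through set 6, which fixed their direction. Of the 23 that reached 1 FPKM in both sets, 10 were lower and 4 higher. Fewer members were lower without the NC library of set 6. ITGA5, the integrin chain that binds fibronectin, was higher, at 21.3 and 20 FPKM in set 2 and 59.0 and 58.8 FPKM in set 6 (1.47, SE 0.11), as was LAMB3, a laminin chain (1.65, SE 0.17). FN1, fibronectin, was lower, at 373 and 425 FPKM against 226 and 212 FPKM. COL1A1, a chain of collagen I, differed by -1.25 (SE 0.14). Of 29 TGF-beta and EMT genes 6 (20.7%) were higher and 9 (31.0%) lower, against 18.5% and 21.7% of mRNAs other than histones. Fewer of them passed without the NC library of set 6.

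Of 14 keratin and desmosome genes 6 (42.9%) were higher, against 16.2% of all genes. They were led by JUP, plakoglobin, at 28.7 and 34.6 FPKM in set 6 against 14.7 and 15.1 FPKM in set 2 (1.03, SE 0.12). Without the NC library of set 6 the list held 2 higher genes, and without its NACER_ASO library 1. Wnt targets were lower for 8 of 12 (66.7%), against 28.3% of all genes, and fewer were lower without the NC library of set 6. The transcription factor TBX3 had the largest difference, at 12.6 and 12.9 FPKM against 31.3 and 24.6 FPKM (-1.07, SE 0.13). YAP and TAZ targets held 6 (28.6%) lower and 3 (14.3%) higher of 21, against 21.7% and 18.5% of mRNAs other than histones. Fewer were lower without the NC library of set 2. Among the lower were CTGF, a matricellular protein (-0.99, SE 0.13), and ANKRD1 (-0.87, SE 0.12).

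Of 9 tested genes of EGFR, the ERBB receptors and their ligands, 2 ligands (22.2%) were lower, against 28.3% of all genes. HBEGF stood at 66.3 and 61.8 FPKM in set 2 and at 15.7 and 21.5 FPKM in set 6 (-1.74, SE 0.14), and EREG, epiregulin, at 59.4 and 62.1 FPKM against 29.6 and 27.0 FPKM. EGFR itself stood at 43.5 and 49.6 FPKM against 61.5 and 50.8 FPKM and did not pass (0.26, SE 0.13, adjusted p = 0.144), though it did with the highest transcript (0.54, adjusted p = 0.0288). Of 14 tested glycosphingolipid genes 5 (35.7%), A4GALT among them, were higher and 1 (7.14%) lower, against 16.2% and 28.3% of all genes. B4GALNT1, the synthase of gangliosides GM2 and GD2, stood at 9.38 and 9.55 FPKM against 16.9 and 18.1 FPKM (0.82, SE 0.13), and GLA, the lysosomal galactosidase that degrades Gb3, at 61.2 and 61.5 FPKM against 97.3 and 112 FPKM.

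Markers of other cell types moved in both directions. Of 5 tested stromal markers 4 (80.0%) were lower, against 28.3% of all genes. All 5 had both set 6 libraries below both of set 2, as did 41.8% of all genes. COL3A1, 1 of the 5, passed the filter only through set 2, which fixed its direction. PDGFRA, a growth factor receptor, stood at 12.2 and 12 FPKM against 4.94 and 5.53 FPKM (-1.08, SE 0.14). With the highest transcript it differed by -0.33 (limma adjusted p = 0.268). The summed level of 8 stromal markers was 227 and 253 FPKM in set 2 and 200.2 and 193 FPKM in set 6, most of it LUM, the proteoglycan lumican (199.6, 224, 190.3 and 182 FPKM), with THY1 at 0.0274 FPKM or less. The 8 endothelial markers summed to between 0.561 and 2.11 FPKM, and EMCN was listed at 0 throughout. The 10 immune markers summed to 80.9 and 81.0 FPKM against 120.0 and 144 FPKM, with 2 of 5 tested higher and 2 lower. The higher were LYZ, lysozyme (1.04, SE 0.11), and CD68, a lysosomal protein of macrophages and other cells (0.61, SE 0.13; adjusted p = 0.0616 without the NACER_ASO library of set 6). The lower were CD14, a lipopolysaccharide co-receptor (-0.99, SE 0.17; -0.50 after quantile normalization), and ITGAM, an integrin chain of myeloid cells (-0.78, SE 0.18), whose call ended without either library of set 2, without the NC library of set 6 (-0.51), after quantile normalization (-0.28) and with the highest transcript (adjusted p = 0.0509 to 0.222). CD14 passed the filter only through set 2, which fixed its direction, and 1 of the other 4 tested immune markers was lower. PTPRC, the leukocyte common antigen, stayed under 1 FPKM in every library. The 8 bile duct markers summed to 155 and 151 FPKM against 185 and 199 FPKM, with 3 of 7 tested higher and 1 lower (median -0.18). EPCAM, an epithelial adhesion molecule, stood at 18.1 and 19.9 FPKM against 31.9 and 32.2 FPKM (0.73, SE 0.11), while SOX9, a duct transcription factor, was lower (-0.43, SE 0.12), with a call that ended without the NC library of set 2 (-0.26), without either library of set 6 and with the highest transcript (adjusted p = 0.0512 to 0.164). Their part in the other results was not tested.

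Few genes were present in one set and absent from the other. With at least 1 FPKM in both libraries of one set and under 0.1 FPKM in both of the other, 2 genes were found in set 6 and 48 in set 2, of which 13 were mRNAs. CCL3, a chemokine for monocytes, was listed at 0 in set 2 and stood at 4.06 and 3.57 FPKM in set 6. HHLA2, an immune checkpoint ligand of the B7 family, stood at 0.0693 and 0.0838 FPKM against 1.93 and 2.37 FPKM. In the other direction HIST1H2BM stood at 5.77 and 4.22 FPKM in set 2 and was listed at 0 and 0.0933 FPKM in set 6, and NACA2 stood at 2.84 and 3.42 FPKM against 0.0256 and 0.0739 FPKM. MIR544B and MIR4639 were listed at 0 in set 6.

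The differences were spread over all chromosomes, with mRNA medians from -0.21 on chromosome 13 to 0.16 on chromosome 22. Of 484 runs of 25 neighbouring mRNA genes, medians lay between -0.63 and 0.44, and the lowest runs lay among zinc finger genes of chromosome 19. The lowest, at chr19:12035883-12859138 in hg19 from ZNF700 to ASNA1, held 15 lower and 1 higher gene. The next, at chr19:57980954-58724928 from ZNF772 to ZNF274, held 19 lower and 1 higher. Counted after these runs were seen and without a test, 111 (52.9%) of 210 ZNF symbols on chromosome 19 were lower and 2 (0.952%) higher (median -0.48). Of 212 ZNF symbols elsewhere 81 (38.2%) were lower and 7 (3.3%) higher (median -0.33). Among mRNAs with a mean log2(FPKM + 1) of 2 to 3, a range that holds the median level of both ZNF groups, 27.4% were lower and 12.9% higher. The other 706 mRNAs of chromosome 19 held 251 (35.6%) higher and 111 (15.7%) lower (median 0.21). The shares of all mRNAs other than histones were 18.5% higher and 21.7% lower. ZNF genes encode mostly transcriptional repressors, and many are close copies of each other.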

How the data were processed

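RNA-seq libraries of Huh7 cells were analysed from the authors' deposited table of transcripts, which gives FPKM per transcript and library, per the file headers. FastQC 0.11.5, Bowtie2 2.2.6, StringTie 1.3.3b and the build hg19 are named per the submitters' processing notes; neither their roles nor any use of strand in counting is given in these sources. FPKM of 63714 transcript rows were summed to 27689 gene symbols, and symbols with at least 1 FPKM in at least 2 of the 4 libraries of sets 2 and 6 were tested. Of the tested symbols, 1127 passed this filter only through set 2 and 105 only through set 6, which fixed their direction. Low values gave whole multiples of 1 read, within 2%, for only 38.5% to 51.2% of values per library, so counts were not recovered and the depth is unknown.

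The test was limma 3.58.1 in R 4.3.3 on log2(FPKM + 1), two-sided, with set and treatment as terms, a mean-variance trend and Benjamini-Hochberg adjustment over all 14418 genes at 0.05. It leaves 1 residual degree of freedom per gene, the set-by-treatment difference, moderated by 7.20 prior degrees of freedom. Symbols with a coding transcript (NM accession) counted as mRNAs, apart from replication-dependent histones. Text genes were the title and marker genes, the 12 leading genes in each direction of at least 5 FPKM, the 4 largest of each list and the 6 highest on-or-off genes, plus those said to be chosen after their values were seen; a few genes this rule selects are not reported here. The members and all gene lists were chosen with earlier results of these data known, so lists are described by counts and medians. Sequences came from RefSeq promoters (GRCh38.p14) and GENCODE transcripts (GRCh38). The fit was tested on simulated data. Alternatives covered the pseudocount, filters, scaling, terms of the fit, each library in turn (without the treatment term) and the highest transcript in place of the sum.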

Additional observations from a re-analysis of the deposited data

Results flagged for a closer look

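In 3 of the genes reported here the set difference had opposite signs in the 2 treatments. With 1 library for each set and treatment, the difference between treatments was not tested. CEBPB, a liver transcription factor of the acute phase, stood at 2.79 and 55.6 FPKM in the NC and NACER_ASO libraries of set 2 and at 44.5 and 4.98 FPKM in those of set 6, so that set 6 minus set 2 was 3.59 within NC and -3.24 within NACER_ASO. EIF3C, a subunit of a translation initiation factor, stood at 118, 4.24, 76.2 and 135 FPKM in the same order, giving -0.62 within NC and 4.70 within NACER_ASO; it has a near-identical copy, EIF3CL, between which fragments can be divided. RPS16, a ribosomal protein gene, stood at 620.1, 529, 597 and 869 FPKM, giving -0.054 within NC and 0.72 within NACER_ASO. None of these 3 passed for set in the fit with treatment as a term (adjusted p = 0.916 for CEBPB, 0.11 for EIF3C and 0.172 for RPS16).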

How the results depend on the processing

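The number of genes past the threshold stayed within 1.5 times of 6407 under every alternative except a filter of 5 FPKM and the removal of single libraries. The filter of 5 FPKM called 4067 of 10038 genes, 2122 of them lower, with 47.8% of calls higher; it tested fewer genes. Quantile normalization called 2609 lower genes. Fits to coding mRNAs alone and with equal mRNA sums, chosen after seeing the data, called 5436 (46.0% higher) and 6832 (29.9% higher). Removing 1 library at a time called 2913 to 4299 genes, 752 to 1672 higher and 1953 to 2627 lower; the lone library of a set was assumed to vary like the others. The replicate numbers mark treatment, so the pairing of libraries across sets is the treatment term; without this block 5595 genes were called. Rescaling to equal sums gave infinite prior degrees of freedom, and its p-values rest on the trend alone. Reversed values were BTC at 0.32 (quantile normalization), CEBPB, EIF3C and BTC with single libraries removed (ranges -1.78 to 2.12, -0.21 to 4.29 and -0.42 to 0.037) and HNF4A at 0.22 (highest transcript). List medians reversed for keratins (-5.6e-05), gluconeogenesis and urea cycle (-0.11) and immune markers (-0.067) with no filter, immune markers and interferon or MHC genes with single libraries removed (ranges -0.063 to 0.45 and -0.018 to 0.32), and bile duct markers with the 5 FPKM filter (0.42) and quantile normalization (0.29). Medians close to 0 also changed sign, in 1 to 5 settings each, for acute phase, p53, S phase, YAP and TAZ, TGF-beta and EMT, fatty acid oxidation, heat shock and cytosolic ribosomal genes. The cause was not tested. Unknown depth limits the precision of weakly expressed genes.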
